A study of Mus musculus with 12 samples.

Results

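The ER (endoplasmic reticulum) chaperones described here are 10 genes, Sdf2l1, Hspa5, Hsp90b1, Calr, Canx, Creld2, Manf, Dnajb11, Dnajc3 and Hyou1. They were taken by gene symbol from a table of 19246 genes measured in 12 mouse heart libraries. The members were chosen with earlier results of these data known. Shares of members set beside shares of all genes below are therefore descriptions and do not test a joint rise. All 10 genes were in the table and all 10 had enough counts to be tested. RNA was sequenced from hearts of animals labelled IRC mouse in 4 groups of 3 libraries. The busulfan plus AOS group received busulfan, a DNA-alkylating drug, once at 40 mg/kg and then alginate oligosaccharides (AOS), short sugar chains cut from alginate, at 10 mg/kg over 5 weeks. That single busulfan dose alone was given in the busulfan group, and the same AOS course alone in the AOS group, while control animals were untreated. The code on the busulfan libraries, HBA0, differs from the code B0 that the design text explains, and was read as busulfan alone. No genetic change is named for any group, and the animals' sex and age were not stated in what was read. Nothing states that replicates are different animals; p-values thus reflect the spread among these libraries, which may be technical.

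The ER folds membrane and secreted proteins. Hspa5 (BiP), an Hsp70-type chaperone, binds unfolded chains there and also holds the stress sensors Ire1, Perk and Atf6 inactive. When unfolded protein accumulates, these sensors start the unfolded protein response, which raises transcription of the chaperones themselves through ER stress response elements in their promoters. In heart muscle the ER is largely given over to calcium storage, and its chaperones serve membrane proteins and the secreted proteins of both myocytes and stromal cells.

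Promoter sequences are shown because the 10 genes are textbook targets of that response and were higher together in 1 group of libraries. RefSeq promoters of GRCm38.p6 (the assembly of mm10), running from 250 bases before to 50 bases after a gene's start, were matched by symbol for 8 of the 10 genes, all except Manf and Hyou1. Both strands were searched for the element ERSE (CCAAT, any 9 bases, CCACG), for ERSE-II (ATTGG, any 1 base, CCACG) and for UPRE (TGACGTGG). ERSE and ERSE-II share the letters CCACG, and the ATTGG of ERSE-II is CCAAT read on the other strand. An exact ERSE was found in 6 of the 8 promoters, against 0.119% of 32851 promoters in the table. In the sequences below, written 5′ to 3′ on the strand of the gene, capitals mark the fixed letters of the element. A CGTGG before an ATTGG is the element on the opposite strand.
Hspa5, chr2:34772005-34772063, plus strand: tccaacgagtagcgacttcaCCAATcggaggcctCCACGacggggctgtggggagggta
Hsp90b1, chr10:86705513-86705676, minus strand: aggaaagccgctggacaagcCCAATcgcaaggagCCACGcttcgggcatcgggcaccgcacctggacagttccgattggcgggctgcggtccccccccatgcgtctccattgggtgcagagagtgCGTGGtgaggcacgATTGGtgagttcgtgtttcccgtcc
Calr, chr8:84847055-84847113, minus strand: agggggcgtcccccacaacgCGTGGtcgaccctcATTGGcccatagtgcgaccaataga
Canx, chr11:50325780-50325838, minus strand: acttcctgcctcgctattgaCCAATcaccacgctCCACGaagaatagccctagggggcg
Creld2, chr15:88819500-88819558, plus strand: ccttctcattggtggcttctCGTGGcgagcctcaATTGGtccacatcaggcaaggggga
Dnajc3, chr14:118937807-118937865, plus strand: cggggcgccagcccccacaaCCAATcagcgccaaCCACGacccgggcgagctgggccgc
Dnajb11, chr16:22857843-22857871, plus strand: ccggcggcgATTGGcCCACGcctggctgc

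Hsp90b1 carried ERSE at 2 places, with first bases 212 and 107 bases before the start. The element began 65 bases before the start in Hspa5, 105 in Dnajc3, 126 in Creld2, 145 in Canx and 162 in Calr. Dnajb11 held ERSE-II just after its start, a match found in 0.0365% of all promoters. None of the 3 motifs was in the 300-base window of Sdf2l1, and UPRE was in none of the 8, against 0.676% of all promoters. Among other genes of ER protein handling, ERSE was in 2 of 11 promoters of disulfide isomerases and oxidases (Pdia6 and Ero1b) and in 2 of 12 of ER-associated degradation (Syvn1 and Derl3). It was in 0 of 11 promoters of the sensors and transcription factors and in 0 of 11 of cytosolic heat shock chaperones. A match describes letters only. These genes were known targets of the response, so matches were likely in advance and test nothing about these libraries. The gene with the largest fold change below, Sdf2l1, had no match, and the gene with the smallest, Canx, had one. Whether matches go with fold changes was not tested, and Manf and Hyou1 could not be searched.

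Library totals lay between 9929772 and 13620815 estimated counts. Myh6, the main myosin of adult mouse heart, was between 4774 and 7215 FPKM (fragments per kilobase of transcript and per unit of library size) in all 12 libraries. Libraries differed widely in transcripts of neighbouring tissue: atrial markers summed to 39.1 FPKM in AOS replicate 1 and 13960 FPKM in AOS replicate 2. The airway gene Scgb1a1 was at 4155 FPKM in AOS replicate 2, and AOS replicate 3 held 5.58% of that level against 0.331% in AOS replicate 1. In the same way replicate 2 of busulfan plus AOS held 5.83% of the 1031 FPKM of Scgb1a1 seen in replicate 1. Controls were at 85.1, 45.7 and 60.7 FPKM of Scgb1a1, near the 60.2 FPKM of that replicate 2. For the airway gene Bpifa1 these shares were 5.40% and 6.15%, with controls at 0.1, 0.17 and 0 FPKM. Whether RNA or reads passed between libraries was not tested. AOS replicate 2 and replicate 1 of busulfan plus AOS held the most Scgb1a1. The comparisons of busulfan plus AOS and the interaction are also given without each of them. Fewer cells of a type and less RNA per cell cannot be told apart in such libraries.

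In the libraries from hearts given busulfan and then AOS, mean levels of the ER chaperones were higher than in those from untreated hearts. Most of these differences did not pass over all genes. All 10 had a higher mean, against 53.0% of all genes. Here and below, a higher or lower mean is the sign of the fitted log2 fold change, which can differ from that of the FPKM means. Of the 10, 4 (Hyou1, Sdf2l1, Manf and Calr) passed the threshold of 0.05 on edgeR's Benjamini-Hochberg adjusted p over all 14687 genes tested. Over all genes 0.259% were called higher. The median log2 fold change of the 10 was 0.76, beside 0.04 over all genes. In FPKM all 10 genes lay above every control library in all 3 libraries of busulfan plus AOS, against 30.5% of all genes. On the TMM scale of the test (trimmed mean of M values, which removes shifts shared by most genes) this held for 9, against 20.1% of all genes. In this comparison the median of all genes shifted by 0.19 (log2) with library totals in place of TMM factors and by 0.17 with FPKM + 0.1. Ratios of FPKM means thus exceed the fitted changes, as 1.65 against 1.44 for Hspa5 and 5.19 against 4.53 for Sdf2l1.

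**Figure D1:**
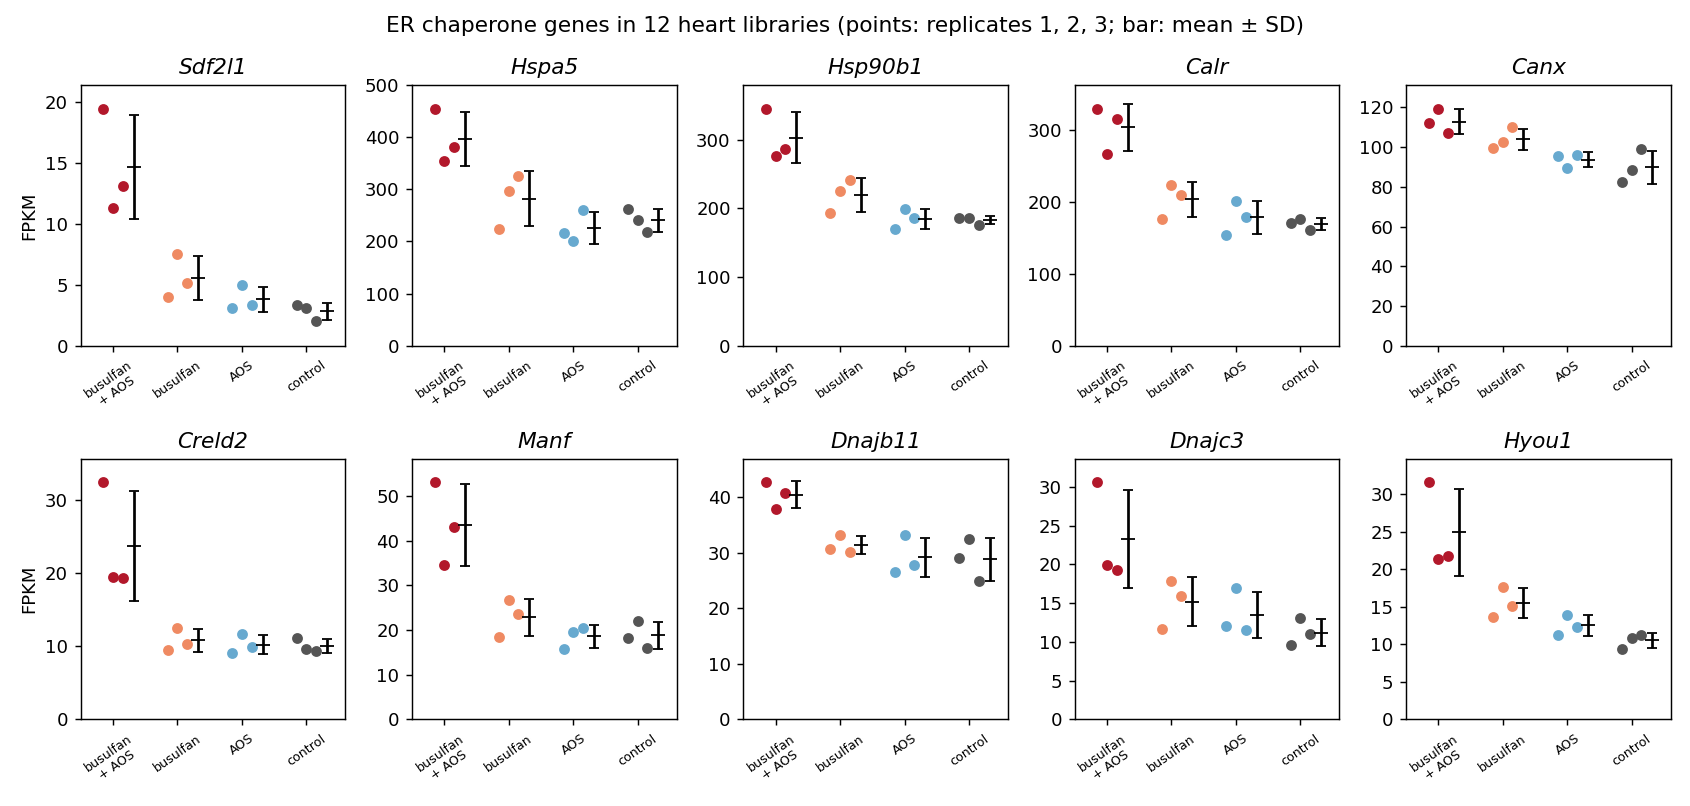
FPKM of each ER chaperone gene in every library of busulfan plus AOS, busulfan, AOS and control, with points in replicate order and a bar for the mean ± SD (n = 3); each vertical axis starts at 0. The 3 libraries of busulfan plus AOS sit above all others for 9 of the 10 genes; for Canx the lowest of them, at 107 FPKM, lies below a busulfan library at 110 FPKM.

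Hspa5 (BiP, gene 14828, mm10 chromosome 2, 34772090 to 34776529) was the most abundant of the 10. It was at 455, 354 and 381 FPKM in busulfan plus AOS, at 224, 296 and 326 FPKM in busulfan, at 216, 201 and 260 FPKM in AOS, and at 262, 241 and 218 FPKM in control. Every library of busulfan plus AOS was above every other library, while busulfan, AOS and control overlapped. Its log2 fold change for busulfan plus AOS against control was 0.53 ± 0.19 (SE, edgeR adjusted p = 0.101), so the difference did not pass over all genes.

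The nucleotide exchange factor of BiP is Hyou1 (GRP170, gene 12282, chromosome 9, 44379490 to 44392369), a large Hsp70 relative that lets BiP release its clients. Hyou1 was at 31.6, 21.4 and 21.8 FPKM in busulfan plus AOS, at 13.7, 17.6 and 15.2 FPKM in busulfan, at 11.2, 14.0 and 12.3 FPKM in AOS, and at 9.45, 10.9 and 11.2 FPKM in control. The busulfan plus AOS libraries were the highest, and the busulfan libraries were above the controls but overlapped the AOS libraries. It rose in busulfan plus AOS against control (log2 fold change 1.06 ± 0.13 SE, edgeR adjusted p = 0.0139) and ranked 7 among all genes by p. This call held in 19 of 27 alternative settings, more than for any other of the 10.

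BiP works with J-domain partners and adaptors. Sdf2l1 (gene 64136, chromosome 16, 17130138 to 17132383), a small adaptor that joins the ER J proteins, had the lowest mean FPKM and the largest fold change of the 10. It was at 19.4, 11.3 and 13.1 FPKM in busulfan plus AOS, at 3.97, 7.48 and 5.15 FPKM in busulfan, at 3.08, 4.97 and 3.36 FPKM in AOS, and at 3.33, 3.12 and 2.00 FPKM in control. These rest on 138 to 258 estimated counts in busulfan plus AOS and 21 to 36 in control, so counting error is larger than for the other members. The 3 libraries of busulfan plus AOS stood apart from the rest, and busulfan lay above control without overlap. Sdf2l1 rose to a fitted 4.53-fold of control in busulfan plus AOS (log2 fold change 2.18 ± 0.29 SE, edgeR adjusted p = 0.0200). The call held in 15 of 27 alternative settings.

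Dnajb11 (ERdj3, gene 67838, chromosome 16, 22857845 to 22879634), the J protein that hands clients to BiP, varied little. It was at 42.7, 38.0 and 40.8 FPKM in busulfan plus AOS, at 30.6, 33.2 and 30.2 FPKM in busulfan, at 26.6, 33.2 and 27.9 FPKM in AOS, and at 29.1, 32.5 and 24.9 FPKM in control. Busulfan plus AOS lay above the other groups, which overlapped one another. The log2 fold change of Dnajb11 for busulfan plus AOS against control was 0.31 ± 0.09 (SE, edgeR adjusted p = 0.0894). Dnajc3 (p58IPK, gene 100037258, chromosome 14, 118937932 to 118981702), a J protein also known as an inhibitor of the sensor kinase Perk, was at 30.6, 19.97 and 19.2 FPKM in busulfan plus AOS, at 11.7, 17.9 and 16.0 FPKM in busulfan, at 12.03, 16.9 and 11.6 FPKM in AOS, and at 9.59, 13.1 and 10.96 FPKM in control. Replicate 1 of busulfan plus AOS stood well above its own group, and the lowest library of that group exceeded the highest busulfan library by little. The log2 fold change of Dnajc3 was 0.86 ± 0.19 (SE, edgeR adjusted p = 0.0736).

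Hsp90b1 (GRP94, gene 22027, chromosome 10, 86690841 to 86705444) is the Hsp90 of the ER and folds integrins and Toll-like receptors. Its level was 345, 276 and 286 FPKM in busulfan plus AOS, 193, 225 and 241 FPKM in busulfan, 170, 199 and 186 FPKM in AOS, and 186, 186 and 176 FPKM in control. The controls spanned a narrow range, and the busulfan plus AOS libraries were above all others. Its log2 fold change for busulfan plus AOS against control was 0.54 ± 0.12 (SE, edgeR adjusted p = 0.0736).

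The lectin chaperones Calr and Canx hold newly made glycoproteins in a folding cycle; calreticulin is soluble and also buffers calcium, while calnexin is anchored in the membrane. Calr (gene 12317, chromosome 8, 84842088 to 84846931) was at 330, 267 and 315 FPKM in busulfan plus AOS, at 177, 224 and 210 FPKM in busulfan, at 155, 201 and 180 FPKM in AOS, and at 171, 177 and 161 FPKM in control. It rose in busulfan plus AOS against control (log2 fold change 0.65 ± 0.11 SE, edgeR adjusted p = 0.0480), with no overlap with any other group. The call of Calr lay close to the threshold and held in 7 of 27 alternative settings. Canx (gene 12330, chromosome 11, 50293957 to 50325673) was at 112, 119 and 107 FPKM in busulfan plus AOS, at 99.6, 102 and 110 FPKM in busulfan, at 95.6, 89.5 and 96.0 FPKM in AOS, and at 82.4, 88.5 and 98.8 FPKM in control. Busulfan plus AOS overlapped busulfan for Canx, which it did for no other member. The log2 fold change of Canx was 0.14 ± 0.13 (SE, edgeR adjusted p = 0.441). Canx and Manf had fractional counts in all 12 libraries and the other 8 genes in none. Fractional counts can arise where reads are shared between features, so the values of both are taken as less certain.

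Manf and Creld2 are ER proteins that can also be secreted. Manf (gene 74840, chromosome 9, 106888753 to 106891938), a BiP-binding protective factor, was at 53.1, 34.7 and 43.0 FPKM in busulfan plus AOS, at 18.5, 26.7 and 23.6 FPKM in busulfan, at 15.7, 19.7 and 20.5 FPKM in AOS, and at 18.3, 22.1 and 16.0 FPKM in control. Manf rose in busulfan plus AOS against control (log2 fold change 1.05 ± 0.18 SE, edgeR adjusted p = 0.0479), and its other 3 groups overlapped one another. That call, also close to the threshold, held in 7 of 27 alternative settings. Creld2 (gene 76737, chromosome 15, 88819646 to 88826681), a protein with EGF-like repeats, was at 32.4, 19.4 and 19.4 FPKM in busulfan plus AOS, at 9.49, 12.6 and 10.4 FPKM in busulfan, at 9.13, 11.7 and 9.83 FPKM in AOS, and at 11.1, 9.62 and 9.35 FPKM in control. Creld2 showed the flattest profile over busulfan, AOS and control, with means of 10.8 ± 1.58, 10.2 ± 1.31 and 10.0 ± 0.942 FPKM (SD, n = 3 each). Its log2 fold change for busulfan plus AOS against control was 1.05 ± 0.19 (SE, edgeR adjusted p = 0.0530).

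The 4 genes over 50 FPKM in control (Hspa5, Hsp90b1, Calr and Canx) had log2 fold changes of 0.14 to 0.65 for busulfan plus AOS against control. The 6 genes under 50 FPKM had 0.31 to 2.18. Summed over the 10 genes, the level was 1451, 1161 and 1247 FPKM in busulfan plus AOS, 781, 963 and 988 FPKM in busulfan, 713, 791 and 807 FPKM in AOS, and 781, 784 and 728 FPKM in control. Hspa5, Hsp90b1 and Calr together made up 75.7% to 79.1% of that sum in every library.

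The count of 4 members past the threshold in busulfan plus AOS against control depended on the tool and on single libraries. DESeq2 called 9 of the 10, all except Canx (6.48% of all genes called higher). Limma-voom called 1 (0.0749% of all genes) and, with library weights, 7 (1.62%). In edgeR, 9 had an unadjusted p under 0.05, against 16.7% of all genes. Leaving out the first or second control library, or the first of busulfan plus AOS, gave a count of 0. Leaving out the third library of control, busulfan or busulfan plus AOS gave 1, and it was 2 without AOS replicate 1 or 3, busulfan replicate 1 or 2, or replicate 2 of busulfan plus AOS. Without AOS replicate 2 there were 8, against 8.48% of all genes. The fold changes moved less than the calls. The median over the 10 genes was 0.63 without replicate 1 of busulfan plus AOS and 0.76 without AOS replicate 2, and all 10 stayed higher in both. Of the 10 genes, 9 had their highest FPKM of all 12 libraries in replicate 1 of busulfan plus AOS, and Canx had it in replicate 2.

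**Figure D2:**
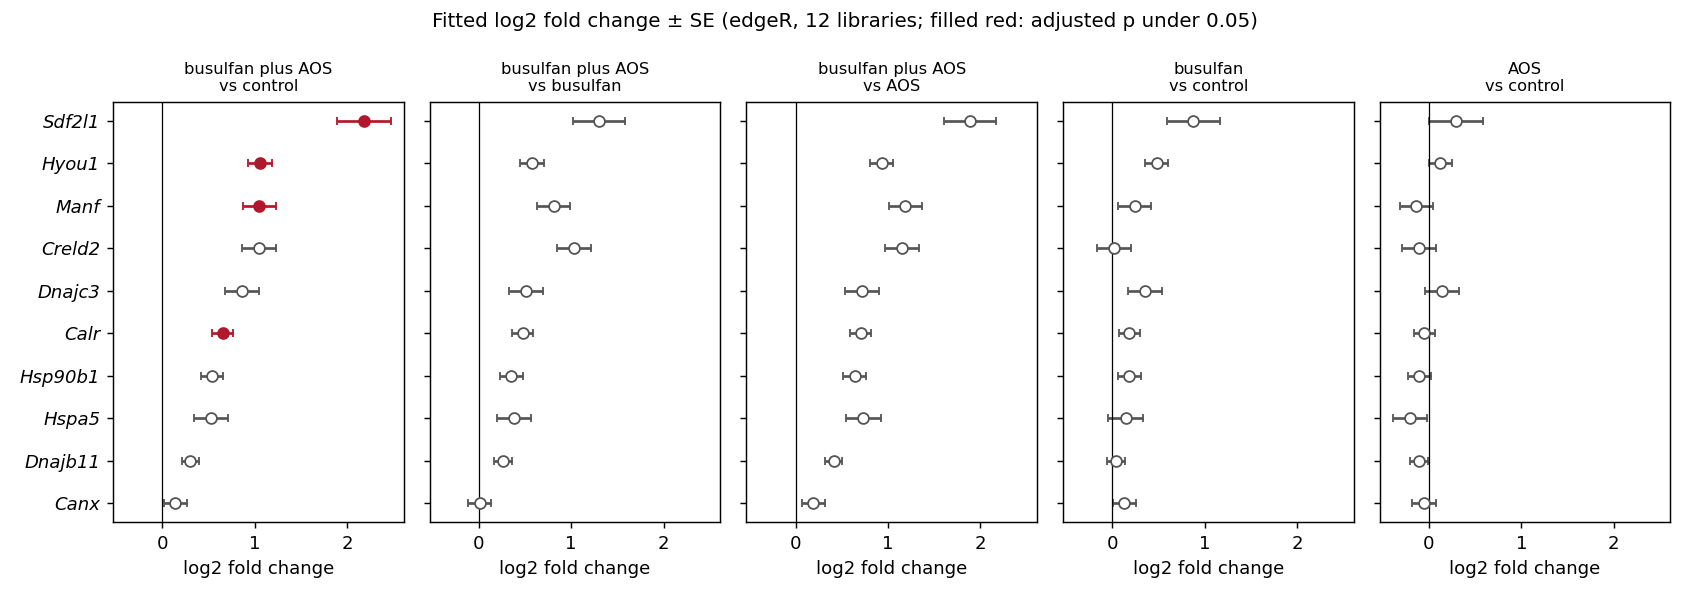
Fitted log2 fold change ± SE of the 10 genes from edgeR over 12 libraries, in 5 comparisons of groups, with filled red points for an adjusted p under 0.05. Filled points appear in the comparison of busulfan plus AOS with control, for Sdf2l1, Hyou1, Manf and Calr.

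Adding AOS after busulfan was examined by setting busulfan plus AOS against busulfan. All 10 genes had a higher mean with AOS, against 50.2% of all genes, with a median log2 fold change of 0.49, beside 0.00 over all genes. Creld2 ranked 2 among all genes by p, with 23.7 ± 7.50 FPKM in busulfan plus AOS and 10.8 ± 1.58 FPKM in busulfan (SD, 3 libraries each; log2 fold change 1.03 ± 0.19 SE). Sdf2l1 had a log2 fold change of 1.30 ± 0.28 and Manf of 0.81 ± 0.18, while Canx was at 0.01 ± 0.13. In edgeR 0 of the 10 passed over all genes (adjusted p = 0.469 for the other 9 members and 0.974 for Canx; 0% of all genes called). At an unadjusted p under 0.05 there were 8, against 6.07% of all genes higher. DESeq2 called 5, Sdf2l1, Calr, Creld2, Manf and Hyou1, against 0.229% of all genes, and limma-voom called 0 with and without library weights. In FPKM 9 of the 10, all except Canx, did not overlap between busulfan plus AOS and busulfan, against 15.3% of all genes, and 9 on the TMM scale, against 10.5%. Without replicate 1 of busulfan plus AOS the median was 0.35 and 6 had an unadjusted p under 0.05. Without AOS replicate 2 the median was 0.49, with 9. The share of all genes at that level was not counted without these libraries.

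Busulfan in animals that also received AOS was examined by setting busulfan plus AOS against AOS. All 10 genes had a higher mean, against 49.2% of all genes. Each of the 10 lay above the AOS libraries without overlap, against 6.71% of all genes in FPKM and 7.24% on the TMM scale. The median log2 fold change was 0.73, beside -0.00 over all genes. In edgeR 0 of the 10 passed (0.0204% of all genes called higher), with adjusted p of 0.0586 for Sdf2l1, Manf and Hyou1 and 0.0620 for Calr and Creld2. DESeq2 called 9 of the 10 (0.604% of all genes), limma-voom 0 and, with library weights, 8 (1.53%). In edgeR 9 had an unadjusted p under 0.05, against 5.48% of all genes. The median was 0.66 without replicate 1 of busulfan plus AOS and 0.77 without AOS replicate 2. Each of these fits had 9 at an unadjusted p under 0.05 and 0 passed. The share of all genes at an unadjusted p under 0.05 was not counted in them. This comparison and the preceding ones share the libraries of busulfan plus AOS, so their results are not independent.

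Each agent alone was set against control. For busulfan all 10 had a higher mean, against 51.0% of all genes, with a median log2 fold change of 0.18, beside 0.01 over all genes. Sdf2l1 averaged 5.53 ± 1.79 FPKM in busulfan and 2.82 ± 0.715 FPKM in control (SD, 3 libraries each; log2 fold change 0.88 ± 0.29 SE, edgeR adjusted p = 0.434). Hyou1 averaged 15.5 ± 1.97 FPKM in busulfan and 10.5 ± 0.945 FPKM in control (log2 fold change 0.48 ± 0.13, edgeR adjusted p = 0.416). These 2 had an unadjusted p under 0.05, against 6.69% of all genes, and 0 of the 10 passed in edgeR, DESeq2 or limma-voom (0% of all genes called higher in edgeR and 0.172% in DESeq2). In FPKM 4 lay above control without overlap, against 11.8% of all genes, and 2 on the TMM scale, against 8.82%.

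With AOS alone against control, 3 genes had a higher mean (Sdf2l1, Dnajc3 and Hyou1), against 53.7% of all genes, and 7 a lower one, against 46.3%, on the TMM scale, with a median log2 fold change of -0.08, beside 0.03 over all genes. Log2 fold changes ran from -0.20 ± 0.19 for Hspa5 to 0.29 ± 0.29 for Sdf2l1. Scaling by library totals shifted the median of all genes by 0.12, and the median of the 10 genes was then 0.04, beside 0.15 over all genes. With that shift Hsp90b1, Calr, Canx, Creld2 and Dnajb11 had values above 0. None of the 10 passed in edgeR (0% of all genes), DESeq2 (0.0208%) or limma-voom. At an unadjusted p under 0.05 edgeR had 0 of the 10, against 4.05% of all genes higher.

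Whether AOS acted differently with and without busulfan was tested as an interaction, the log2 fold change of AOS after busulfan minus that of AOS alone. All 10 values were above 0, against 46.1% of all genes, with a median of 0.49, beside -0.03 over all genes. The value was 1.13 ± 0.26 for Creld2, 1.01 ± 0.40 for Sdf2l1, 0.94 ± 0.25 for Manf and 0.53 ± 0.16 for Calr (SE). Creld2 ranked 4 among all genes by p. In edgeR 0 of the 10 passed over all genes (adjusted p = 1.0 for each, 0% of all genes called), as in DESeq2 (0.0156%) and limma-voom (0%). At an unadjusted p under 0.05 there were 8, against 1.44% of all genes higher. Single libraries decided that count. It was 4 without replicate 1 of busulfan plus AOS (median 0.44) or busulfan replicate 1, and 5 without control replicate 1, control replicate 2 or AOS replicate 1. Without AOS replicate 2 there were 7, with a median of 0.46, and Canx was below 0. With library totals in place of TMM factors there were 5. Shares of all genes were not counted for these altered fits.

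Over both busulfan groups against both groups without it, 6 libraries against 6, all 10 genes had a higher mean, against 50.3% of all genes. Hyou1 and Sdf2l1 rose (log2 fold changes 0.71 ± 0.09 and 1.38 ± 0.20 SE, edgeR adjusted p = 0.0224 and 0.0395), against 0.136% of all genes called higher. Hyou1 ranked 7 and Sdf2l1 12 among all genes by p. The count of 2 was 8 in DESeq2 (2.18% of all genes), 1 in limma-voom (0.0885%) and 7 with library weights (3.45%). The count was 0 without the first or second control library, AOS replicate 1 or 3, or busulfan replicate 2 or 3, and 0 with library totals in place of TMM factors. It was 1 without control replicate 3 or any library of busulfan plus AOS, 3 without busulfan replicate 1 and 5 without AOS replicate 2 (1.58% of all genes). In edgeR 9 of the 10 had an unadjusted p under 0.05, against 10.3% of all genes. Canx, with a log2 fold change of 0.16 ± 0.09, was the exception, although it was the only member whose FPKM did not overlap between the 6 libraries of each side, against 0.620% of all genes.

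Other genes of ER protein handling were counted in lists by role. Over all genes 53.0% had a higher mean in busulfan plus AOS than in control and 0.259% were called higher in edgeR. Among 12 sensors and transcription factors of the unfolded protein response, 9 had a higher mean in busulfan plus AOS than in control and 1 rose past the threshold, and the list's median log2 fold change was 0.36. That gene was Xbp1, the transcription factor activated by Ire1, with 55.6 ± 8.45 FPKM in busulfan plus AOS and 27.9 ± 1.94 FPKM in control (SD, 3 libraries each; log2 fold change 0.85, edgeR adjusted p = 0.0462). Ddit3 (Chop), a late factor of the response, was at 36.6 ± 7.67 FPKM in busulfan plus AOS and 20.2 ± 1.38 FPKM in control (log2 fold change 0.79, edgeR adjusted p = 0.0568). The sensor kinase Eif2ak3 (Perk) and the factor Atf4 had log2 fold changes of 0.44 and 0.29.

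Of 12 disulfide isomerases and oxidases, 11 had a higher mean in busulfan plus AOS than in control and 1 passed, Pdia4, at 34.5 ± 9.42 FPKM in busulfan plus AOS and 12.997 ± 0.750 FPKM in control (log2 fold change 1.21, edgeR adjusted p = 0.0440). In ER-associated degradation 10 of 13 tested genes had a higher mean and 1 passed, the ubiquitin ligase Syvn1 (log2 fold change 1.03, edgeR adjusted p = 0.0200). Vcp, the ATPase that pulls proteins out of the ER, was at -0.43. Of 18 other ER folding factors 17 had a higher mean and 0 passed in edgeR, with 6 higher at an unadjusted p under 0.05, against 16.7% of all genes. Uggt1, the glucosyltransferase that returns unfolded glycoproteins to calnexin and calreticulin, had a log2 fold change of 0.49 (edgeR adjusted p = 0.0777). The 17 genes of ER translocation and signal peptide processing were split, 8 higher and 9 lower, with a median of -0.02, 0 passed in edgeR and 5 at an unadjusted p under 0.05 (3 higher, 2 lower). That count of 3 is near the 16.7% of all genes that were higher at this level. The share of all genes lower at this level is not given.

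Chaperones of other compartments were counted in the same way. Of 14 cytosolic heat shock chaperones 12 had a higher mean in busulfan plus AOS than in control, against 53.0% of all genes, and the list's median was 0.58 (log2). In edgeR 0 passed and 9 had an unadjusted p under 0.05 (8 higher, against 16.7% of all genes, and 1 lower). Dnaja1, a J protein of the cytosol, was at 162 ± 63.6 FPKM in busulfan plus AOS and 43.5 ± 6.05 FPKM in control (log2 fold change 1.70, edgeR adjusted p = 0.0558). Of 9 mitochondrial chaperones and proteases 8 had a lower mean, with a median of -0.52, 0 passed in edgeR and 5 lower at an unadjusted p under 0.05. The share of all genes lower at that level is not given, so these 5 have no background beside them. Hspa9, the mitochondrial Hsp70, had a log2 fold change of -0.52 and the protease Clpp of -0.67. Of the 5 paralogs of members that could be tested, 4 had a fitted log2 fold change below 0, where 53.0% of all genes were above 0, and 0 passed in edgeR. Sdf2, the paralog of Sdf2l1, was at 33.2 ± 2.49 FPKM in busulfan plus AOS and 33.0 ± 3.14 FPKM in control (log2 fold change -0.18 ± 0.11 SE). Cdnf, the paralog of Manf, was at 9.95 ± 2.93 FPKM in busulfan plus AOS and 14.4 ± 1.79 FPKM in control (log2 fold change -0.72 ± 0.24 SE, edgeR adjusted p = 0.0933).

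**Figure D3:**
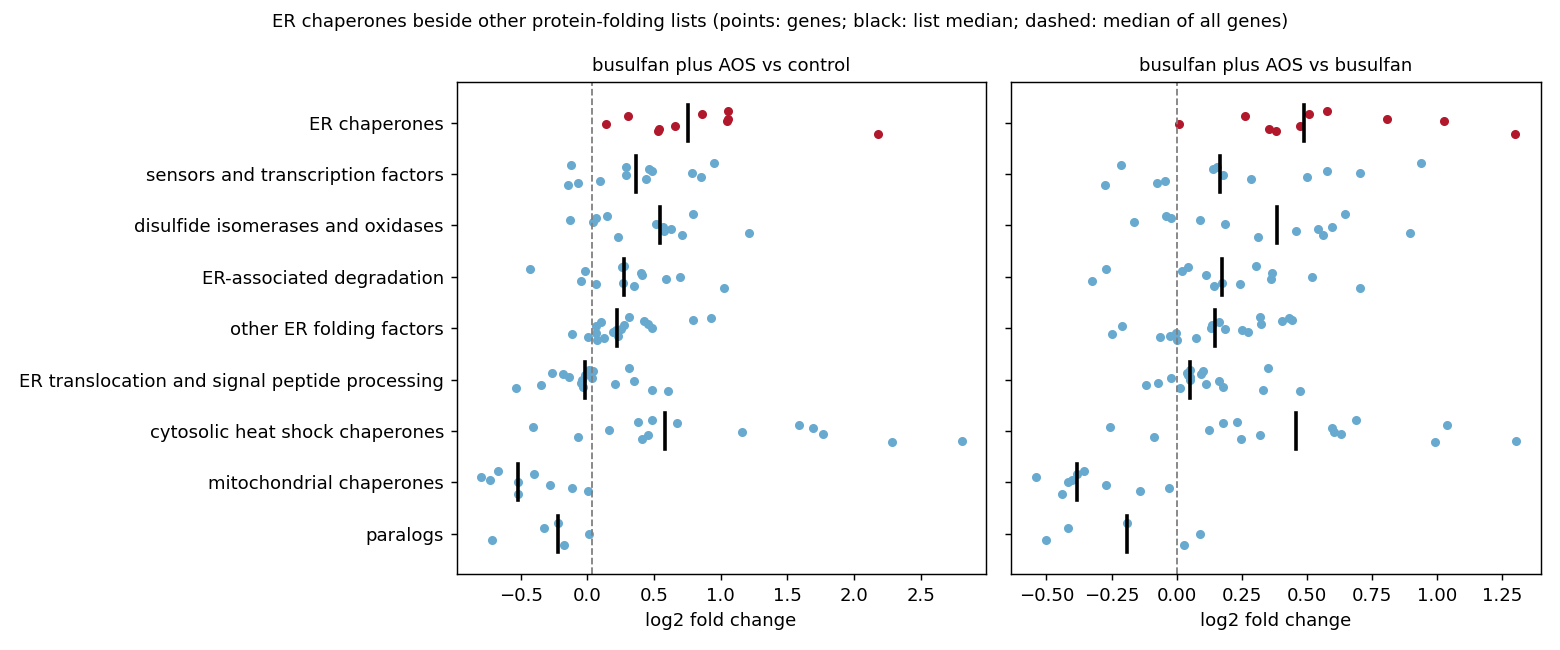
Log2 fold change of each tested gene (points) in the ER chaperones and 8 other lists, for busulfan plus AOS against control and against busulfan; black bars are list medians and dashed lines the median of all genes. The ER chaperones lie at 0.14 to 2.18 against control, while the mitochondrial list has its median at -0.52.

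The 10 genes followed one another across libraries. Pearson's r of log2 CPM over 12 libraries had a median of 0.88 over the 45 pairs and ranged from 0.21 to 0.98, the highest for Calr with Manf. These libraries share group differences; for deviations from group means the median r was 0.51 and the range -0.67 to 0.87. Canx was the least alike, with a median r of 0.35 to the other members and of -0.35 for deviations from group means. Among 10714 other genes with a mean of at least 5 CPM, those with the highest r over the 12 libraries to the mean standardised level of the members were Serpinh1 (0.97), Pdia6 (0.97), Elovl5, Pdia4, P4ha1, Pdia3, Xbp1, Mtmr4, Tubb2a and Slc35e2, the last at 0.93. Serpinh1, the collagen chaperone of the ER, was at 231 ± 72.8 FPKM in busulfan plus AOS, 138 ± 17.3 FPKM in busulfan, 95.3 ± 8.63 FPKM in AOS and 95.6 ± 2.00 FPKM in control (SD, n = 3 each). P4ha1, which hydroxylates collagen in the ER, was at 69.3 ± 18.2, 40.4 ± 8.31, 25.4 ± 5.84 and 25.5 ± 2.71 FPKM in busulfan plus AOS, busulfan, AOS and control.

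Markers of several other cell types were also higher in busulfan plus AOS than in control, while ventricular, erythroid and neutrophil markers were lower. All 7 macrophage markers had a higher mean in busulfan plus AOS than in control, and they summed to 576 to 717 FPKM in busulfan plus AOS, 272 to 462 FPKM in busulfan, 288 to 621 FPKM in AOS and 273 to 314 FPKM in control. All 6 fibroblast markers, cells that belong to the heart itself, were higher, with sums of 1057 to 1356 FPKM in busulfan plus AOS, 744 to 1155 FPKM in busulfan, 809 to 1732 FPKM in AOS and 677 to 994 FPKM in control. All 6 atrial markers were higher, with sums of 3025 to 14330 FPKM in busulfan plus AOS, 21.6 to 2491 FPKM in busulfan, 39.1 to 13960 FPKM in AOS and 297 to 7871 FPKM in control, where Bmp10 was listed at 0 in all 3 libraries.

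The 7 adipocyte markers were also all higher, with sums of 1672 to 2762 FPKM in busulfan plus AOS, 1007 to 3383 FPKM in busulfan, 933 to 1763 FPKM in AOS and 910 to 1159 FPKM in control. The 6 B and plasma cell markers, of interest because plasma cells are rich in ER, were all higher, with sums of 6.34 to 16.3 FPKM in busulfan plus AOS, 2.80 to 4.89 FPKM in busulfan, 2.41 to 35.7 FPKM in AOS and 3.22 to 4.39 FPKM in control. The 4 smooth muscle and 5 mesothelium markers were all higher (1 mesothelium marker passed in edgeR). Smooth muscle sums were 222 to 757 FPKM in busulfan plus AOS, 190 to 407 in busulfan, 98.5 to 262 in AOS and 105 to 139 in control. Mesothelium sums were 51.9 to 147, 8.56 to 64.1, 8.20 to 86.9 and 9.70 to 25.9 FPKM in the same order. Both sums were highest in replicate 1 of busulfan plus AOS, the library with the lowest ventricular sum. The 4 erythroid and 2 tested neutrophil markers were all lower, and of 5 endothelial markers 2 were higher. The 4 hepatocyte markers were all higher, with sums of 18.1 to 1171 FPKM in busulfan plus AOS, 7.98 to 49.2 FPKM in busulfan, 29.4 to 134.9 FPKM in AOS and 4.04 to 164.7 FPKM in control. Against busulfan all 4 were higher at an unadjusted p under 0.05, against 6.07% of all genes, with a median log2 fold change of 3.59. Of 6 lung epithelium markers 4 were higher and 2 lower than in control, and 1 passed as lower. All 7 ventricular markers had a lower mean, with sums of 22120 to 37240 FPKM in busulfan plus AOS, 35950 to 48350 FPKM in busulfan, 26170 to 50570 FPKM in AOS and 50170 to 59230 FPKM in control.

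AOS replicate 2 was rich in several of these markers. It had more fibroblast and B and plasma cell markers than any library of busulfan plus AOS, 1732 and 35.7 FPKM, and 621 FPKM of macrophage and 13960 FPKM of atrial markers. Lung epithelium markers were also above that group, at 4808 FPKM. Adipocyte, smooth muscle, mesothelium and hepatocyte markers, at 1763, 262, 86.9 and 29.4 FPKM, lay within the range of busulfan plus AOS. Its 10 ER chaperones summed to 791 FPKM, with 713 and 807 FPKM in the other AOS libraries. This is a single library, and Hspa5, Hsp90b1 and Calr make up most of the sum. In FPKM, replicate 2 was the highest AOS library for Sdf2l1, Hsp90b1, Calr, Creld2, Dnajb11, Dnajc3 and Hyou1. It was the lowest for Hspa5 and Canx and lay between for Manf. On the TMM scale the mean standardised level of the 10 was -0.924 there, against -0.789 and -0.559 in AOS replicates 1 and 3. The part of these cell types in the higher chaperone levels was not tested beyond the covariate fits that follow. With the level of a marker list as covariate in edgeR, all 10 genes stayed higher in busulfan plus AOS than in control. The median log2 fold change was 0.60 with atrial, 0.51 with adipocyte, 0.64 with fibroblast, 0.73 with macrophage and 0.69 with B and plasma cell markers, and 0 of the 10 passed in any of these fits (0.0136% of all genes higher with the atrial covariate). Of the 10, 6 to 10 had an unadjusted p under 0.05 in them. The share of all genes at that level was not counted in these fits, so the count has no background beside it. The last 3 covariates were added after the values were seen. Smooth muscle, mesothelium, hepatocyte and lung epithelium markers were not used as covariates, and their part in the result was not tested.

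**Figure D4:**
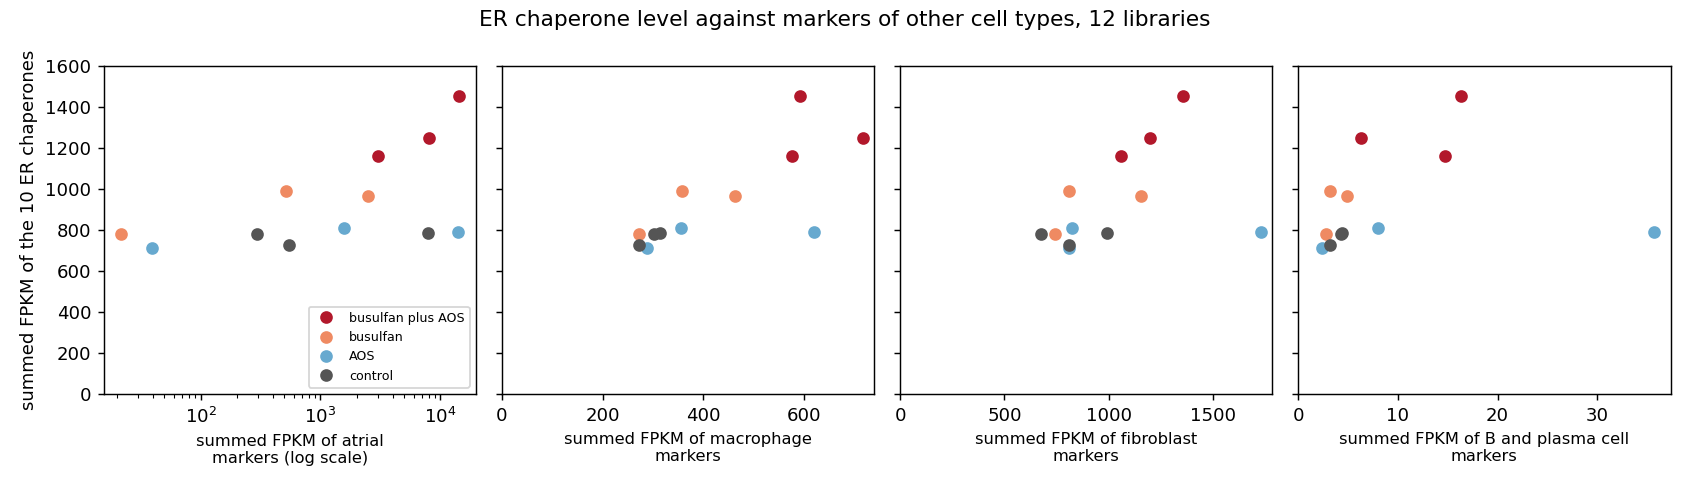
Summed FPKM of the 10 ER chaperones in each library against the summed FPKM of atrial (log axis), macrophage, fibroblast and B and plasma cell markers (axes from 0), coloured by group. The busulfan plus AOS libraries have chaperone sums of 1161 to 1451 FPKM, and AOS replicate 2, with a high marker sum in each panel, has 791 FPKM. Adipocyte, smooth muscle, mesothelium and hepatocyte markers, for which that library lies within the range of busulfan plus AOS, are not shown.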

How the data were processed

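The authors deposited 1 table with estimated counts for each gene; 19.7% to 22.8% of a library's values are fractional (over 0.005 from a whole number). A second set of deposited values, headed only "exp" per the file headers, was taken as FPKM: gene length implied by count and FPKM had a median coefficient of variation of 0.457% over 1097 genes above 50 FPKM throughout. Per the submitters' processing notes, mm10 was the build. No source used here names the aligner or counter. Group means by the authors (8 columns) were left aside.

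Groups come from sample titles. The code HBA0 was read as the series' busulfan group, and the tissue tag reads Cells, while the series title and extraction protocol name the heart. Counts were rounded, filtered (filterByExpr, 14687 genes kept) and TMM-scaled. One model with a mean per group over all 12 libraries was fitted by quasi-likelihood in edgeR 4.0.16 (R 4.3.3), with Benjamini-Hochberg adjustment over all genes and a threshold of 0.05. SE is the absolute log2 fold change over the square root of F. DESeq2 1.42.0 and limma 3.58.1 were alternatives, as were other scalings, no filter, a replicate block, marker covariates, FPKM with pseudocounts of 1 and 0.1, and leaving out each library. With 3 against 3 an exact permutation test cannot go below p = 0.1, so none is given.

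Members and lists were chosen with earlier results of these data known. All members are named; of each other list up to 4 genes, those with the smallest p for busulfan plus AOS against control, may be named, beside any paralog or marker, and the 10 genes most like the members.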

Additional observations from a re-analysis of the deposited data

How the results depend on the processing

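The direction of the 10 genes held in every alternative for busulfan plus AOS against control and against AOS and for both busulfan groups together. The number of members past the threshold did not hold. For busulfan plus AOS against control (4 in edgeR) it was 2 with RLE size factors, 2 without a filter on low counts, 6 with library totals, 6 with limma on FPKM + 1 and 6 on FPKM + 0.1, 9 in DESeq2, 1 in limma-voom, 7 with library weights, 2 with the replicate block and 0 with each of the 5 marker covariates; without single libraries it ranged from 0 to 8. For both busulfan groups together (2 in edgeR) it was 0 with library totals, 8 in DESeq2, 1 in limma-voom, 7 with library weights, 5 with the atrial, 0 with the adipocyte, 4 with the B and plasma cell, 5 with the fibroblast and 0 with the macrophage covariate, 0 with the replicate block, and 0 to 5 without single libraries. For busulfan plus AOS against busulfan it was 0 in edgeR and 5 in DESeq2. For busulfan plus AOS against AOS it was 0 in edgeR, 9 in DESeq2, 8 with library weights and 3 with the fibroblast covariate. The causes were not tested. Over all genes edgeR called 45 for busulfan plus AOS against control. It called 30 with RLE size factors, 16 with no filter, 422 with the 2 groups fitted alone, 2 with the atrial and 0 with each other covariate, 26 with the replicate block and 0 to 2546 without single libraries, while DESeq2 called 2353, limma-voom 12, library weights 364 and limma on FPKM 74 and 82. For both busulfan groups together edgeR called 23, against 569 in DESeq2.

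Replicate numbers were not taken as pairs. Same-numbered libraries had correlations of -0.45 to 0.55 between deviations from group means, over 0.1 in 6 of 18 pairs. Those 6 were the pairs among control, AOS and busulfan for replicates 1 and 2, at 0.23 to 0.55. Replicate 2 also had the most atrial markers in those groups (7871, 13960 and 2491 FPKM). Differently numbered libraries were not compared, so an effect shared by replicate number was not tested. The replicate block stands here only.

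Reversals of sign were confined, among the alternatives run, to small values. For AOS against control, library totals, FPKM + 1 and FPKM + 0.1 shifted the median of all genes by 0.12, 0.07 and 0.10 (log2). With that shift, and not relative to it, values turned above 0 for Hsp90b1 (0.0204, 0.0181 and 0.0182), Calr (0.0739, 0.0671 and 0.0674), Canx (0.0594, 0.0622 and 0.0628), Creld2 (0.0257, 0.0212 and 0.0228) and Dnajb11 (0.0187, 0.0224 and 0.0231). Canx also reversed there with library weights (0.0368), the adipocyte (0.0117), B and plasma cell (0.0413), fibroblast (0.0383) and macrophage (0.0151) covariates, and without control replicate 3 (0.0144) or AOS replicate 2 (0.0518). Creld2 did so without control replicate 1 (0.0104), and Dnajc3 with the adipocyte (-0.0348) and fibroblast (-0.0281) covariates. For busulfan against control, Creld2 reversed with the adipocyte covariate (-0.0653) and without control replicate 2 (-0.0360), control replicate 3 (-0.0341) or busulfan replicate 2 (-0.0625), Dnajb11 without control replicate 3 (-0.0549) and Hspa5 without busulfan replicate 3 (-1.69e-05). Canx reversed for busulfan plus AOS against busulfan with library weights (-0.0259) and without busulfan replicate 1 (-0.00652), busulfan replicate 2 (-0.0354) or the second library of busulfan plus AOS (-0.0585), and in the interaction with library weights (-0.0627) and without control replicate 3 (-0.00839), AOS replicate 2 (-0.0421) or the second busulfan plus AOS library (-0.00522). Without single libraries, log2 fold changes ranged from -0.0585 to 0.0545 for Canx, busulfan plus AOS against busulfan, and from -0.0421 to 0.126 for Canx in the interaction. For busulfan against control they ranged up to 0.274 for Hspa5, 0.139 for Creld2 and 0.107 for Dnajb11, and for AOS against control down to -0.120 for Canx and -0.165 for Creld2. The 21 to 36 counts of Sdf2l1 in control limit the precision of its fold change.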
